A study of Mus musculus with 8 samples.

Results

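Whole-kidney transcripts of 9 vitamin D genes were compared between 4 control mice and 4 SIK mutant mice. The genes were the hydroxylases *Cyp27b1*, *Cyp24a1* and *Cyp2r1*, the nuclear receptors *Vdr* and *Rxra*, and the uptake genes *Lrp2*, *Cubn*, *Amn* and *Dab2*. They were picked by gene symbol, and all 9 were found among the 55401 genes listed for each kidney. After a filter on low counts 14326 genes were tested, 8 of the 9 members among them, and *Cyp2r1*, at 6 to 14 reads per kidney, did not pass. Values per kidney are reads scaled to the library total (CPM, with TMM library factors) and group values are means ± SD of 4 mice.

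Per the labels, control mice were SIK1f/f together with SIK2f/f and SIK3f/f, that is, they carried loxP-flanked genes for the 3 salt-inducible kinases and no Cre. The mutant mice are labelled with the same 3 floxed genes plus Six2-Cre. The study's text describes kidney-specific mutants with 1 floxed *Sik1* allele, since mice with both did not survive, so the mutant group is called SIK mutant here. Six2-Cre recombines in nephron progenitors and therefore in the tubule cells that descend from them, whereas blood-derived, stromal and vascular cells of a whole kidney keep their alleles. The study describes Cre-negative littermates as controls and animals of both sexes, and the labels of these libraries give neither age nor sex nor litter.

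Vitamin D reaches the kidney as calcidiol, made in the liver by hydroxylases such as CYP2R1 and carried in plasma by the vitamin D binding protein. The complex is filtered and then taken up at the brush border of the proximal tubule by megalin (*Lrp2*) and cubilin (*Cubn*). Amnionless (*Amn*) brings cubilin to the membrane, and *Dab2* encodes the adaptor that links megalin to clathrin-dependent endocytosis. Inside the tubule cell CYP27B1 makes the active hormone calcitriol and CYP24A1 inactivates both calcidiol and calcitriol. Calcitriol binds its receptor VDR, which acts on DNA with an RXR partner such as RXRA. Parathyroid hormone raises *Cyp27b1* and lowers *Cyp24a1*, calcitriol does the reverse, and the salt-inducible kinases are switched off by cAMP signalling downstream of the parathyroid hormone receptor.

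Depth was even, at 10179648 to 10925100 expected counts per kidney, and 3 counts corresponded to 0.263 to 0.305 CPM. The targeted genes were read first. *Sik3* was 62.9 ± 3.79 CPM in controls and 39.5 ± 4.11 CPM in mutants, lower in all 4 mutants (log2 fold change −0.67, edgeR FDR 0.0697). *Sik2* was 9.14 ± 0.842 and 6.72 ± 2.07 CPM with overlapping groups (edgeR FDR 0.794), and *Sik1* was higher in mutants, at 50.6 ± 4.85 against 40.8 ± 2.84 CPM, with no overlap (edgeR FDR 0.601). These counts cover whole genes, and which exons were floxed was not used here. Controls 3 and 4 had *Xist* reads and no reads from Y-linked genes, while the other 6 kidneys, 2 controls and 4 mutants, had Y-linked reads. Counts of control 1 against control 2 and of control 3 against control 4 differed by a chi-square of 9.71 and 9.80 per degree of freedom, whereas each pair across these 2 sets gave 38.3 to 53.8. Each member is therefore given over all 8 kidneys and over those 6, called Y-positive kidneys below. In that smaller set 2 controls stand against 4 mutants.

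*Cyp27b1* and *Cyp24a1* were the 2 members whose control and mutant kidneys did not overlap, both higher in SIK mutants (2 of 9, against 1.65% of all tested genes that were higher with no overlap and 4.03% with no overlap in either direction). Neither passed an FDR of 0.05 in the edgeR quasi-likelihood test, in which 0 of 14326 genes passed (0%). At an unadjusted p under 0.05 the same 2 members were found, against 6.36% of all tested genes and 2.76% higher in mutants. In the Wald test of DESeq2, where 71 of 18372 genes (0.386%) passed, *Cyp27b1* passed with an FDR of 0.00717 and *Cyp24a1* did not (FDR 0.116). In the edgeR fit over 8 kidneys the receptors and the uptake genes differed by at most 0.11 on the log2 scale, in both directions, and their groups overlapped.

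**Figure D1:**
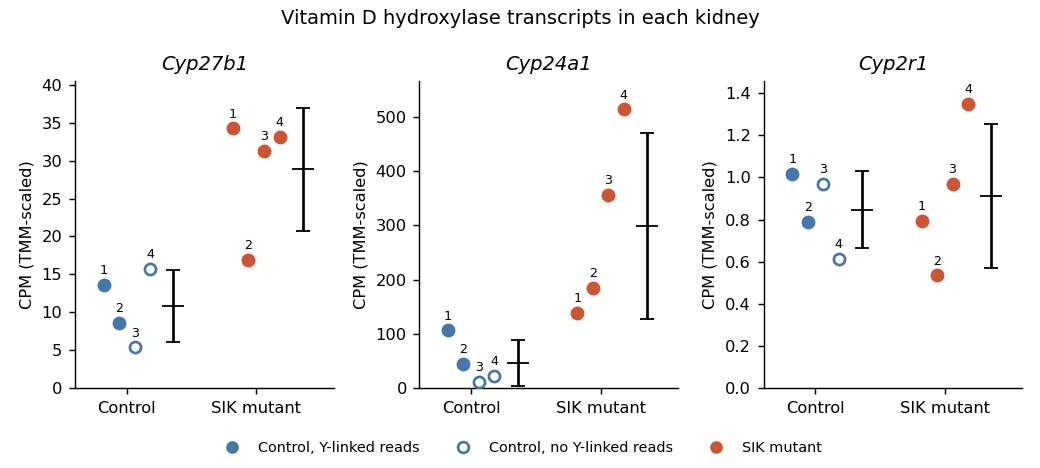
CPM (linear axis from 0) of the 3 vitamin D hydroxylase genes in each kidney; numbers are replicates, open circles are the 2 controls without Y-linked reads, and black bars are the mean ± SD of 4 kidneys. *Cyp27b1* and *Cyp24a1* in the 4 SIK mutants lie above all 4 controls, whereas *Cyp2r1* overlaps near 1 CPM.

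*Cyp27b1*, the gene of the activating enzyme (chr10:127048250-127053006, plus strand, mm10), was 13.6, 8.60, 5.37 and 15.8 CPM in controls 1 to 4. In SIK mutants 1 to 4 it was 34.3, 16.9, 31.3 and 33.1 CPM. The lowest mutant, SIK mutant 2, lay just above the highest control, control 4, and the other 3 mutants lay close together at about 31 to 34 CPM. Means were 10.8 ± 4.72 and 28.9 ± 8.10 CPM, a 2.66-fold difference with a 95% interval of 1.6 to 4.45. The log2 fold change was 1.41 (SE 0.330, edgeR unadjusted p = 0.00176, FDR 0.429). A two-sided exact permutation test over the 70 assignments of 8 kidneys gave p = 0.0286, the smallest it allows. By size of the log2 fold change *Cyp27b1* was number 80 of the 14326 tested genes.

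The *Cyp27b1* difference was nearly the same among the 6 Y-positive kidneys, at 2.62-fold (log2 fold change 1.39, SE 0.312, edgeR unadjusted p = 0.00178, FDR 0.195). There the 2 groups did not overlap either (exact permutation p = 0.0667, the smallest that 15 assignments allow), but 21.8% of all tested genes did not overlap in this set. The 2 controls without Y-linked reads were the lowest and the highest control for *Cyp27b1*, and the mean of both was 0.952 times that of the other 2. Spread within groups, a coefficient of variation of 43.6% in controls and 28.1% in mutants, was above the 9.31% and 5.67% that counting alone would give.

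The window upstream of the *Cyp27b1* start is shown because *Cyp27b1* is the member that passed in DESeq2. It comes from RefSeq promoter windows (GRCm38.p6), in which 8 of the 9 members matched, all but *Cyp24a1*. The stretch is chr10:127047996-127048245 on the plus strand, 5′ to 3′, and capitals mark a CCAAT box read on the opposite strand, at position −86 from the annotated start.
Cyp27b1: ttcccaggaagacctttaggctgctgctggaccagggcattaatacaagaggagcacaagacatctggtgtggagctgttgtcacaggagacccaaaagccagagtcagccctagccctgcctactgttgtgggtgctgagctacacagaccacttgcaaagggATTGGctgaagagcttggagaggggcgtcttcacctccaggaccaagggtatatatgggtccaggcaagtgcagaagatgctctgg
The letters searched on both strands of the 250 upstream bases were the cAMP response element TGACGTCA and its shorter form TGACG, together with the CCAAT box, the half-site of vitamin D response elements and further letters given with the next windows. CCAAT occurred in 33.8% of 32851 such windows. Neither TGACGTCA (1.55% of all windows) nor TGACG (17.8%) occurred in any of the 10 windows of the 8 members, which says nothing about more distant sequence. The vitamin D half-site, spelled GGTTCA (8.85% of all windows), occurred once, in the *Cyp2r1* window, where it overlaps a CCAAT box.

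*Cyp24a1*, the gene of the inactivating enzyme (chr2:170482708-170497145, minus strand), was the most variable member. It was 106.5, 44.95, 10.8 and 22.5 CPM in controls 1 to 4. In SIK mutants 1 to 4 it was 138.4, 184.2, 356.4 and 513.4 CPM. The highest control, control 1, came near the lowest mutant, SIK mutant 1, and the range over the 8 kidneys was 47.4-fold, of which 9.83-fold lay within the controls. Means were 46.2 ± 42.6 and 298.1 ± 171.5 CPM. The log2 fold change was 2.69 (SE 0.678, edgeR unadjusted p = 0.00287, FDR 0.457), a 6.47-fold difference with a 95% interval of 2.26 to 18.5. It was number 12 of the 14326 tested genes by size of the log2 fold change, and the exact permutation test gave p = 0.0286, again the smallest possible.

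The size of the *Cyp24a1* difference depended on which controls were used. Controls 3 and 4, without Y-linked reads, averaged 16.7 CPM and controls 1 and 2 averaged 75.7 CPM, a ratio of 0.220. Among the 6 Y-positive kidneys the difference was 3.97-fold (log2 fold change 1.99, SE 0.565, edgeR unadjusted p = 0.00707, FDR 0.287). All 4 mutants still lay above both controls, while the exact permutation test of the means gave p = 0.133. Without control 1 the log2 fold change was 3.52 over the remaining 7 kidneys. Counting alone would give a coefficient of variation of 4.61% in controls and 1.78% in mutants, against 92.3% and 57.5% observed. A stretch of 83 exon bases of *Cyp24a1* lies opposite *Pfdn4*, a prefoldin subunit gene on the other strand, which held 47 to 89 reads per kidney and was 7.43 CPM in controls and 5.98 CPM in mutants.

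The 2 enzyme genes were set against each other kidney by kidney, because the balance of synthesis and degradation is read from both. The *Cyp24a1* to *Cyp27b1* ratio of CPM was 7.83, 5.23, 2.02 and 1.43 in controls 1 to 4. It was 4.04, 10.9, 11.4 and 15.5 in SIK mutants 1 to 4. SIK mutant 1, with the highest *Cyp27b1* and the lowest *Cyp24a1* of its group, fell within the control range, and the other 3 mutants lay above it. The mean log2 ratio was 1.72 ± 1.15 in controls and 3.23 ± 0.843 in mutants. That difference of 1.51 did not pass the exact permutation test (p = 0.0857). It was 0.55 among the 6 Y-positive kidneys (exact permutation p = 0.467), since controls 3 and 4 had the 2 lowest ratios.

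*Cyp24a1* and *Cyp27b1* both separate the genotypes, so no correlation was pooled over the 8 kidneys. With each value centred on its group mean, Pearson's r was 0.506 (exact permutation within groups p = 0.293, Benjamini-Hochberg 0.621 over 36 pairs). Control 4 and SIK mutant 1 each had the highest *Cyp27b1* and the lowest ratio of its group. *Cyp27b1* is the denominator of that ratio, so a high value lowers the ratio by construction, and the match is no separate result.

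*Cyp2r1* encodes a hydroxylase whose main site is the liver, and it was near the detection limit in these kidneys. It was 1.02, 0.790, 0.969 and 0.613 CPM in controls 1 to 4 and 0.794, 0.535, 0.969 and 1.35 CPM in SIK mutants 1 to 4. The groups overlapped, with means of 0.847 ± 0.184 and 0.911 ± 0.341 CPM (exact permutation p = 0.800). Over the 6 Y-positive kidneys the means were 0.903 CPM in controls and 0.911 CPM in mutants (exact permutation p = 0.933). Counting error alone was 33.3% of a control kidney's value and 32.0% of a mutant's, so small differences were not detectable at this depth.

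**Figure D2:**
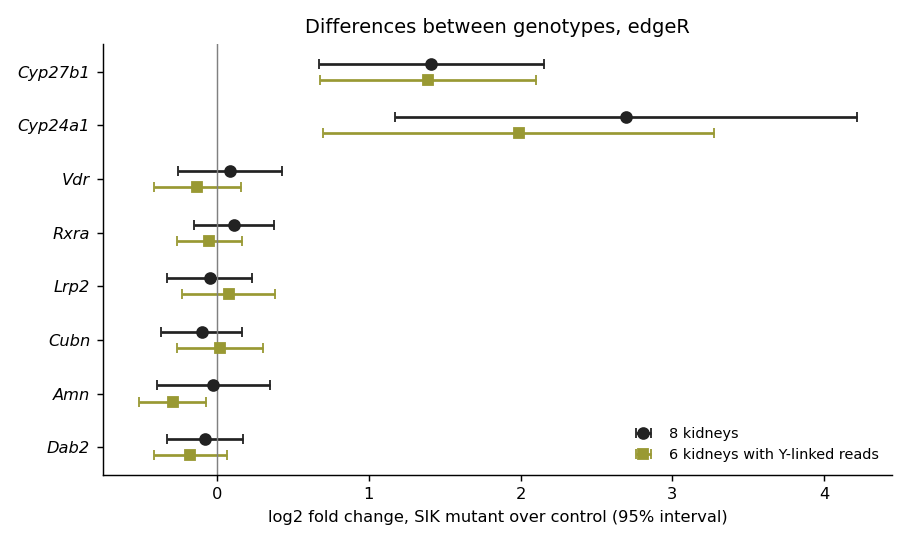
Log2 fold change of SIK mutant over control (horizontal axis) with its 95% interval from edgeR for the 8 tested members, over all 8 kidneys (circles) and over the 6 Y-positive kidneys (squares). The intervals of *Cyp27b1* and *Cyp24a1* lie above 0 in both sets, that of *Amn* lies below 0 in the smaller set, and those of the other 5 genes include 0.

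The receptor *Vdr* (chr15:97854425-97910630, minus strand) was 233.9, 282.7, 184.5 and 183.9 CPM in controls 1 to 4. In SIK mutants 1 to 4 it was 226.1, 224.2, 216.0 and 273.7 CPM. The mutants fell between the 2 sets of controls, below or among controls 1 and 2 and above controls 3 and 4. The log2 fold change was 0.09 (SE 0.153, edgeR FDR 0.949), with a 95% interval of the difference from −16.3% to 34.8%. Over the 6 Y-positive kidneys it was −0.13 (edgeR FDR 0.735), and the 2 controls without Y-linked reads had 0.713 times the *Vdr* of the other 2.

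*Rxra*, the gene of the partner receptor (chr2:27676440-27762957, plus strand), was 120.4, 123.7, 88.9 and 100.2 CPM in controls 1 to 4. In SIK mutants 1 to 4 it was 106.6, 119.5, 126.2 and 116.4 CPM. Controls 3 and 4 were the 2 lowest kidneys, and controls 1 and 2 lay among the mutants. The log2 fold change was 0.11 (SE 0.118, edgeR FDR 0.913) and −0.05 over the 6 Y-positive kidneys (edgeR FDR 0.874). The 95% interval over 8 kidneys ran from −9.83% to 29.9%.

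The uptake genes were abundant and close to even between genotypes. *Lrp2*, which encodes megalin, the receptor that takes up the vitamin D binding protein (chr2:69424340-69586065, minus strand), was 1465, 1415, 1628 and 1719 CPM in controls 1 to 4. In SIK mutants 1 to 4 it was 1335, 1496, 1801 and 1403 CPM. The highest and the lowest kidney were both mutants, and the log2 fold change was −0.05 (SE 0.125, edgeR FDR 0.973), with a 95% interval from −20.2% to 17.6%. Over the 6 Y-positive kidneys the log2 fold change was 0.08 (edgeR FDR 0.857). Megalin at this depth rested on 14327 to 19639 reads per kidney, so counting error, 0.773% in controls, was small beside the coefficient of variation of 9.08% among controls and 13.6% among mutants.

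*Cubn*, the gene of the co-receptor cubilin (chr2:13276338-13491813, minus strand), was 337.3, 372.8, 385.3 and 439.4 CPM in controls 1 to 4. It was 352.0, 338.7, 417.6 and 324.0 CPM in SIK mutants 1 to 4. Control 4 and SIK mutant 3 were the highest kidneys, as they were for *Lrp2*. The log2 fold change was −0.10 (SE 0.118, edgeR FDR 0.927), with a 95% interval from −22.3% to 12.1%, and 0.02 over the 6 Y-positive kidneys (edgeR FDR 0.957). *Cubn* shares 368 exon bases with *Gm13270* on the other strand, a gene with 1 to 9 reads per kidney.

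*Amn*, whose product carries cubilin to the membrane (chr12:111271095-111276426, plus strand), had the widest range of the uptake genes, 1.68-fold over the 8 kidneys. It was 214.0, 224.3, 133.8 and 151.5 CPM in controls 1 to 4. In SIK mutants 1 to 4 it was 195.5, 176.0, 164.2 and 175.8 CPM. All 4 mutants lay between the pair of controls with Y-linked reads and the pair without. Over 8 kidneys the log2 fold change was −0.02 (SE 0.166, edgeR FDR 0.989). Over the 6 Y-positive kidneys *Amn* was 18.3% lower in mutants, with no overlap (log2 fold change −0.29, SE 0.0978, edgeR unadjusted p = 0.0164, FDR 0.350, exact permutation p = 0.0667). In that set 3 of the 9 members did not overlap, against 21.8% of all tested genes. An unadjusted p under 0.05 was found for *Cyp27b1*, *Cyp24a1* and *Amn*, against 11.1% of genes, and 21 of 14719 genes (0.143%) passed an FDR of 0.05, with no member among them.

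*Dab2*, the adaptor gene (chr15:6299788-6440712, plus strand), was 492.0, 539.9, 414.1 and 471.3 CPM in controls 1 to 4. It was 409.3, 440.5, 474.1 and 493.8 CPM in SIK mutants 1 to 4. The lowest kidney was a mutant and the highest a control, and the groups overlapped. The log2 fold change was −0.08 (SE 0.111, edgeR FDR 0.944) and −0.17 over the 6 Y-positive kidneys (edgeR FDR 0.569).

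**Figure D3:**
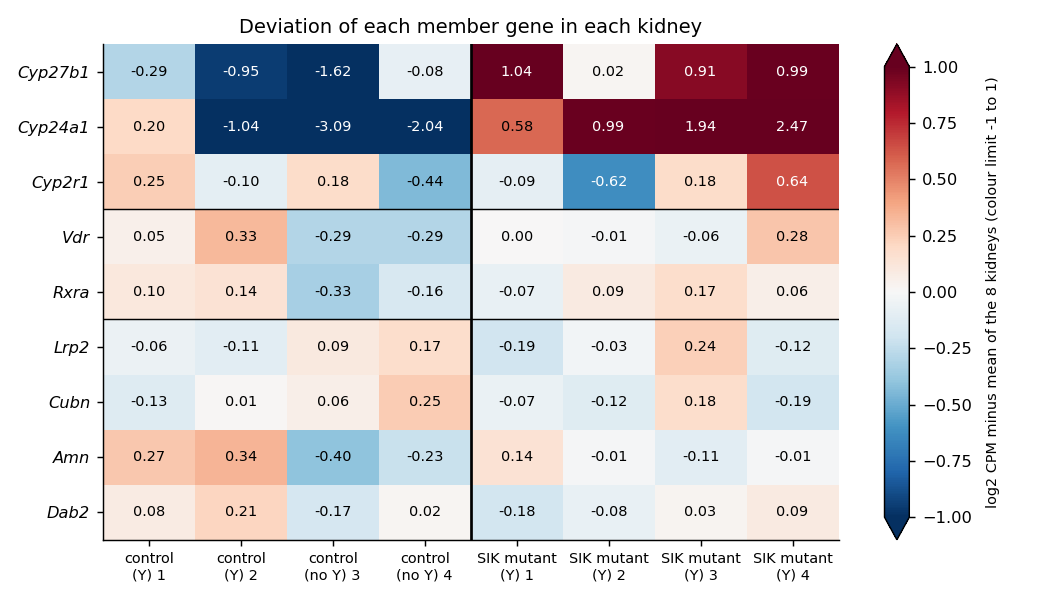
Log2 CPM of each of the 9 members (rows) in each kidney (columns) minus the mean of the 8 kidneys; Y and no Y mark kidneys with and without Y-linked reads, and colour is limited to −1 to 1. Genotype separates the rows of *Cyp27b1* and *Cyp24a1*, whereas the largest deviations of *Vdr*, *Rxra* and *Amn* below the mean are in controls 3 and 4.

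Among the controls alone, the 2 kidneys without Y-linked reads were below the 2 with Y-linked reads for *Cyp24a1*, *Vdr*, *Rxra*, *Amn* and *Dab2* and above them for *Lrp2* and *Cubn*. *Amn* had a ratio of 0.651 between these pairs, *Rxra* of 0.775 and *Dab2* of 0.858. *Lrp2* and *Cubn* each had a ratio of 1.16. With 2 mice on each side these are descriptions with no test. Whether sex or another property of those 2 mice sets them apart was not tested, and no mutant without Y-linked reads was measured.

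The plot of levels per length uses TPM, transcript abundance per length and library total, in which long and short genes can be ranked. In controls the order from the top was *Dab2* (164 TPM), *Amn* (128 TPM), *Lrp2* (106 TPM), *Vdr* (55.0 TPM), *Cubn* (35.4 TPM), *Rxra* (23.2 TPM), *Cyp24a1* (13.2 TPM), *Cyp27b1* (5.01 TPM) and *Cyp2r1* (0.833 TPM). *Lrp2* has more reads than any other member but ranks below *Dab2* and *Amn* per length, as its mean annotated length was 15210 bases in controls against 3161 for *Dab2*. The ranges of *Dab2* and *Amn* overlapped in both groups, although *Dab2* was above *Amn* in 4 of 4 controls and 3 of 4 mutants. *Amn* and *Lrp2* also overlapped, with *Amn* above *Lrp2* in 2 of 4 controls and 3 of 4 mutants.

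In SIK mutants *Cyp24a1*, at 95 ± 49.1 TPM against 13.2 ± 11.2 in controls, stood above *Vdr* in 2 of 4 kidneys and above *Cubn* in all 4. It moved from position 5367 of 23362 genes with a TPM above 0 in controls to position 1079 of 23591 in mutants. *Cyp27b1*, at 14.2 ± 3.72 TPM against 5.01 ± 2.25, moved from position 8825 to 5318. *Vdr* was number 1696 in controls and 1567 in mutants, and *Lrp2* was number 920 and 935. TPM is scaled to the whole library, and on log2(TPM + 0.1) the median tested gene was 0.11 higher in mutants.

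**Figure D4:**
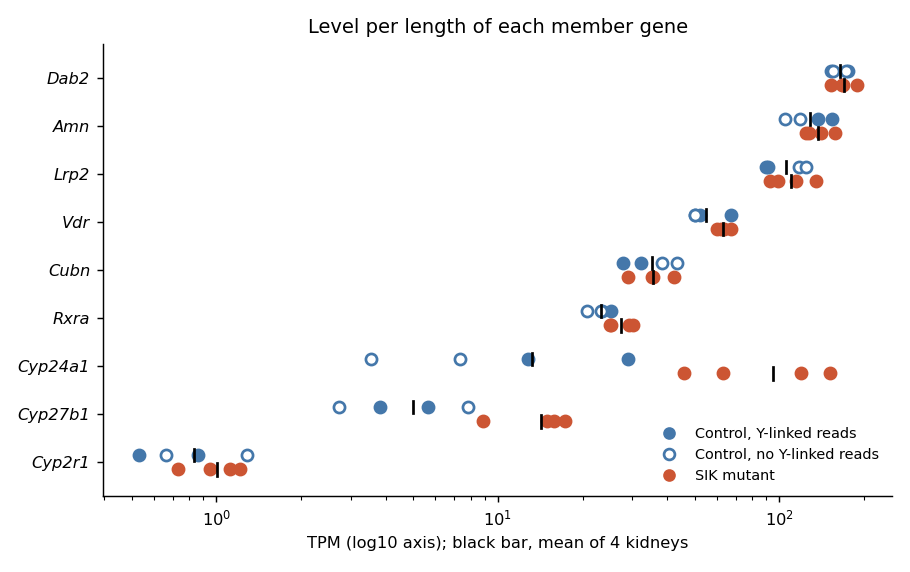
TPM (log10 axis) of the 9 members in each kidney, ordered by the control mean; black bars are means of 4 kidneys and open circles are controls without Y-linked reads. *Cyp24a1* and *Cyp27b1* in SIK mutants lie to the right of all controls. By group mean the uptake genes *Dab2*, *Amn* and *Lrp2* share the top of the order in both groups. In SIK mutant 4 *Cyp24a1* (152 TPM) lies above *Amn* (124 TPM) and *Lrp2* (92.4 TPM).

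The members were then related to each other over the 8 kidneys. Pooled correlations of log2 CPM were computed for the 21 pairs among the 7 members that overlapped between genotypes, with p from all 40320 pairings and Benjamini-Hochberg values over the 21 pairs. None of the 21 passed. *Lrp2* and *Cubn*, the 2 receptors of one uptake complex, had the highest r, 0.821 (exact permutation p = 0.0149, adjusted 0.217), with a Spearman's rho of 0.714 (exact permutation p = 0.0576, adjusted 0.302). Without SIK mutant 3 and control 4, the 2 kidneys farthest from the median of *Lrp2*, r was 0.459, so its size rests in part on those kidneys. Among the 6 Y-positive kidneys r was 0.744 (exact permutation p = 0.115), and with both genes centred on their group means it was 0.822 (p = 0.0312 by exact permutation within groups, adjusted 0.323 over 36 pairs).

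On log2(TPM + 0.1) the same pair had r = 0.920 (exact permutation p = 0.00124, adjusted 0.026), the single pair of the 21 to pass there. *Lrp2* and *Cubn* are both long, with mean annotated lengths of 15210 and 11260 bases in controls. The 125 tested genes of 10 kb and over had median deviations from their own 8-kidney mean of −0.13, −0.10, −0.03 and 0.08 in controls 1 to 4 and of 0.00, 0.23, 0.11 and −0.09 in SIK mutants 1 to 4, on the log2 scale. SIK mutant 2 was the highest kidney for long genes yet lay below the 8-kidney mean for *Lrp2* (−0.03) and *Cubn* (−0.12). SIK mutant 3 was above the mean for long genes, *Lrp2* and *Cubn* alike. The part of gene length in the *Lrp2* to *Cubn* relation was not tested.

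*Vdr* and *Amn* had the second highest r, 0.787 (exact permutation p = 0.0207, adjusted 0.217), with a rho of 0.833 (exact permutation p = 0.0154, adjusted 0.302). It was 0.636 without the 2 kidneys farthest from the *Vdr* median and 0.470 among the 6 Y-positive kidneys (exact permutation p = 0.336). *Vdr* and *Rxra*, the receptor partners, had r = 0.717 (exact permutation p = 0.0511, adjusted 0.228) and a rho of 0.5 (exact permutation p = 0.216, adjusted 0.454). Their r among the 6 Y-positive kidneys was 0.0999 and without the 2 kidneys farthest from the *Vdr* median 0.629. *Lrp2* and *Amn* had a negative r of −0.679 (exact permutation p = 0.0681, adjusted 0.228), although their products meet in one complex. *Lrp2* and *Dab2* had r = −0.0445 (exact permutation p = 0.913, adjusted 0.974).

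**Figure D5:**
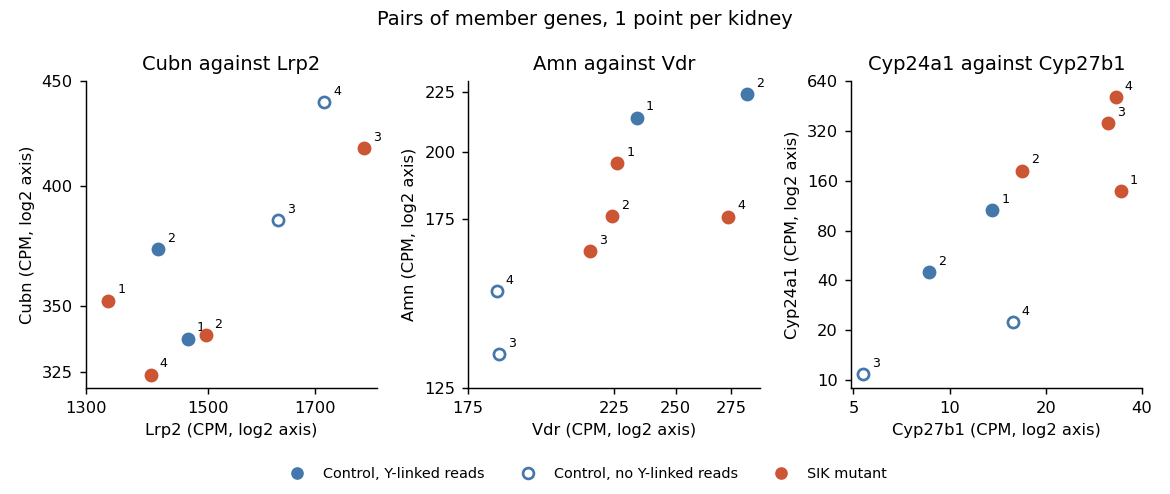
CPM of pairs of members, 1 point per kidney on log2 axes, numbered by replicate; open circles are controls without Y-linked reads. *Cubn* is highest where *Lrp2* is highest (control 4 and SIK mutant 3), controls 3 and 4 hold the low end of *Vdr* and *Amn*, and *Cyp24a1* against *Cyp27b1* separates the genotypes on both axes.

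The upstream windows of *Lrp2* and *Cubn* are shown because these 2 genes had the highest r. *Lrp2* is chr2:69586066-69586279 and *Cubn* chr2:13491877-13492126, both on the minus strand of GRCm38.p6 and printed 5′ to 3′ as transcribed. Capitals mark GC boxes (GGGCGG), at positions −143 and −88 from the RefSeq start of *Lrp2*. The *Lrp2* stretch is the 214 bases of its 250-base window that lie outside the annotated gene. Bases nearest the RefSeq start are thus not printed, and positions cannot be counted from the printed end.
Lrp2: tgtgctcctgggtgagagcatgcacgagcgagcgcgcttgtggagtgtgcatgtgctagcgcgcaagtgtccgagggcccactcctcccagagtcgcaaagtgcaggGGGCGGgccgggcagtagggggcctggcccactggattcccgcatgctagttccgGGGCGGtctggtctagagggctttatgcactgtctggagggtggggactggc
Cubn: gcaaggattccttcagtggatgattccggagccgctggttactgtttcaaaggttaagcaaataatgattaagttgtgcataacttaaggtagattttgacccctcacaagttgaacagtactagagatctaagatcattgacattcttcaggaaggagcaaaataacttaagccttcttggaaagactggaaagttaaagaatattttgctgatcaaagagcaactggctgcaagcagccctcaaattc
The *Lrp2* stretch has 65.9% G and C and that of *Cubn* 39.6%, against a median of 52.4% over all promoter windows. GC boxes occurred in 32.7% of all windows, and none of the letters searched occurred in the *Cubn* window. The *Vdr* window and the first of *Rxra* each had 3 GC boxes, and the second window of *Rxra* had 2 nuclear receptor half-sites, spelled AGGTCA (14.0% of all windows). The E-box CACGTG (6.02% of all windows) occurred once among the members, in the *Amn* window, and the TATA box spelled TATAAA (12.4%) in none.

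For *Cyp27b1*, *Cyp24a1* and *Lrp2* the 5 genes with the most similar pattern over the 8 kidneys were listed among 14200 genes with a mean of at least 1 CPM, by Pearson's r of log2 CPM and as a description. *Cyp27b1* was closest to *4930452B06Rik* (r = 0.967), *Armc10* (0.957), *Tmem41b* (0.920), *Gm26964* (0.908) and *Nop56* (0.905), all 5 of them higher in mutants with no overlap. Both *Cyp27b1* and *Cyp24a1* separate the genotypes, so a high pooled r with either tends to pick genes that separate them too. The lack of overlap follows from that choice and is no result about the genes picked. *Tmem41b* was 40.3 ± 3.30 CPM in controls and 45.8 ± 2.80 CPM in mutants.

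*Cyp24a1* was closest to *Usp6nl* (r = 0.981), *Mtmr12* (0.966), *Errfi1* (0.958), *Ces1g* (0.951) and *Fam19a5* (0.951). *Ces1g*, a carboxylesterase gene, was 23.2 ± 27.4 CPM in controls and 321.1 ± 63.0 CPM in mutants, and *Usp6nl* was 18.3 ± 2.20 and 23.9 ± 1.17 CPM. *Lrp2* was closest to *Epb41l1* (r = 0.978), *AI661453* (0.967), *Fbrs* (0.961), *Shroom3* (0.954) and *F2rl1* (0.942), whose groups all overlapped. These points share library and depth.

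The other genes of the pathway were read from a list of 16, of which 15 were tested. None passed an FDR of 0.05 in edgeR, 8 had a positive and 7 a negative log2 fold change, and the median was 0.01, against −0.00 over all genes tested. *Med1*, a Mediator subunit that contacts nuclear receptors, was the single one at an unadjusted p under 0.05 (25 ± 1.73 against 29.6 ± 2.7 CPM, log2 fold change 0.24, edgeR unadjusted p = 0.0299, FDR 0.742). *Gc*, the vitamin D binding protein, was 51.7 ± 43.7 CPM in controls and 21.7 ± 12.2 CPM in mutants (log2 fold change −1.26, edgeR FDR 0.794), and its log2 fold change was 0.32 over the 6 Y-positive kidneys. At an edgeR unadjusted p under 0.05 in that set *Cyp27a1* (−0.42) and *Fdx1* (−0.35) were lower and *Med1* (0.33) higher. So was *Rxrg* (1.78), at means of 0.629 CPM in all controls and 0.889 CPM in mutants. Of all tested genes 11.1% reached that p there.

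Genes that calcitriol is known to induce in kidney or gut were read from a list of 8, all tested. None passed an FDR of 0.05 in edgeR and the median log2 fold change was 0.10. *Trpv5*, the apical calcium channel of the distal tubule, was 17.4 ± 3.73 CPM in controls and 22.9 ± 3.58 CPM in mutants with overlapping groups (log2 fold change 0.39, edgeR unadjusted p = 0.039, FDR 0.768). The calcium-binding protein genes *S100g* and *Calb1* had log2 fold changes of 0.22 (edgeR FDR 0.846) and 0.13 (edgeR FDR 0.938). The 8 log2 fold changes ran from −0.55 (*Trpv6*) to 0.39, against 2.69 for *Cyp24a1*, itself a receptor target. Over the 6 Y-positive kidneys *Trpv5* was at 0.64 (edgeR unadjusted p = 0.00356, FDR 0.237) and *Slc8a1*, a sodium-calcium exchanger gene, at 0.51 (edgeR unadjusted p = 0.0202, FDR 0.362). *Spp1*, the osteopontin gene, was at −0.34 over 8 kidneys and at 0.44 over those 6 (edgeR unadjusted p = 0.0118, FDR 0.328). In that set 11.1% of all tested genes had an unadjusted p under 0.05 in edgeR, and genes of the other lists did so too.

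The endocytic apparatus around megalin was read from 16 genes, all tested. None passed an FDR of 0.05, the median log2 fold change was 0.02 and the range was −0.23 to 0.20. The lowest was *Ctsb*, the lysosomal protease cathepsin B, at 761.8 ± 41.0 CPM in controls and 648.9 ± 25.6 CPM in mutants with no overlap (edgeR unadjusted p = 0.0271, FDR 0.733). It was 1 of 16 at an unadjusted p under 0.05, against 6.36% of all tested genes. Over the 6 Y-positive kidneys *Ctsb* was at −0.17 (edgeR unadjusted p = 0.0875). *Lrpap1* and *Folr1* were at −0.33 and −0.28 there (edgeR unadjusted p = 0.0287 and 0.0113), against 11.1% of all tested genes under 0.05. The 7 tested neighbours of *Cyp27b1* and *Cyp24a1* on their chromosomes had no unadjusted p under 0.05 in edgeR and ranged from −0.31 (*Pfdn4*) to 0.26 (*Agap2*) in log2 fold change.

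Marker lists were read for the cells that a whole kidney holds. In bulk tissue fewer cells of a type and less RNA per cell cannot be told apart. The labelled tissue was borne out by proximal tubule markers, all 10 of which were tested, with *Gpx3* at 30680 CPM and *Slc34a1* at 5506 CPM in controls. Their summed level was 36350 to 51780 CPM in controls and 34760 to 40730 CPM in mutants, and 2 of the 10 were lower in mutants at an unadjusted p under 0.05, against 3.59% of all tested genes, the glucose transporter gene *Slc5a2* (log2 fold change −0.67, edgeR FDR 0.0697) and *Miox* (−0.34, edgeR FDR 0.713). Controls 1, 2 and 4 had sums of 43670, 51780 and 46130 CPM, above all 4 mutants, while control 3, at 36350 CPM, lay among the mutants. *Slc34a1* had a log2 fold change of −0.53 over the 6 Y-positive kidneys (edgeR unadjusted p = 0.00371, FDR 0.241). This is the set in which *Amn* was lower in mutants, and the part of these markers in that difference was not tested. Beside this, the 4 uptake genes of the same cells summed to 2508 to 2782 CPM in controls and 2292 to 2857 CPM in mutants.

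Adipocyte markers, of which 5 of 6 were tested, summed to 22.3 to 215.7 CPM in controls and 161.5 to 252.4 CPM in mutants. The 2 controls with Y-linked reads held the lowest sums, 22.3 and 29.9 CPM, and *Fabp4* was 42.6 ± 28.1 CPM in controls and 85.3 ± 15 CPM in mutants (edgeR unadjusted p = 0.0225, FDR 0.715), with a log2 fold change of 1.79 over the 6 Y-positive kidneys (edgeR FDR 0.0118). *Adipoq*, *Plin1*, *Cidec*, *Cfd* and *Lep* were at 0 in at least 1 control and in no mutant. Over the 6 Y-positive kidneys *Adipoq*, *Plin1*, *Cidec* and *Cfd* had log2 fold changes of 5.47, 5.74, 6.32 and 6.77. Their edgeR FDR values were 0.0118, 0.0227, 0.0118 and 0.0118, so they and *Fabp4* were among the 21 genes that passed there. *Lep* was at 6.34 in that set (edgeR FDR 0.113). Control 3, whose adipocyte sum of 215.7 CPM lay within the mutant range, had the lowest *Cyp27b1* and the lowest *Cyp24a1* of the 8 kidneys. The part of these cells in the *Cyp27b1*, *Cyp24a1* and *Amn* differences, over 8 or over 6 kidneys, was not tested. Thick limb, distal and collecting duct markers (8 of 8 tested), podocyte, endothelial and stromal markers (8 of 8) and immune markers (5 of 6) had overlapping sums. Among them *Atp6v1g3*, an intercalated cell gene, was lower in mutants with no overlap (log2 fold change −0.29, edgeR unadjusted p = 0.017, FDR 0.704). In that first list log2 fold changes ran from −0.54 for *Pvalb* (edgeR FDR 0.893) to 0.62 for *Aqp2* (edgeR FDR 0.781), and *Aqp2*, the collecting duct water channel gene, was at 1.0 over the 6 Y-positive kidneys (edgeR unadjusted p = 0.00641, FDR 0.285). The podocyte, endothelial and stromal list ran from −0.21 for *Emcn* to 0.73 for *Col1a1*, and the immune list from −0.23 for *Cd74* to 0.25 for *Ptprc*. Over the 6 Y-positive kidneys *Nphs1* was at 0.48 and *Col1a1* at 1.13 (edgeR unadjusted p = 0.0112 and 0.0192). *C1qa*, *C1qb* and *Slc12a1* were at 0.51, 0.58 and 0.50 there (edgeR unadjusted p = 0.0341, 0.016 and 0.0294). No gene of these lists was lower at an unadjusted p under 0.05 in that set, which 11.1% of all tested genes reached.

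The annotated length that RSEM gives for a gene is the mean of its transcript lengths weighted by their abundance, so a shift in it would mark a change in isoforms. *Cyp24a1* has a single annotated transcript of 3560 bases. For the other 8 members lengths overlapped between genotypes and no exact permutation test passed (lowest adjusted p = 0.849). *Cyp27b1*, with 3 annotated transcripts, had a length of 2389 ± 21.4 bases in controls and 2410 ± 7.17 bases in mutants (exact permutation p = 0.143), and without SIK mutant 2 the groups did not overlap, at 2362 to 2407 against 2411 to 2417 bases.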

How the data were processed

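RNA from 8 whole kidneys was sequenced on a BGISEQ500 instrument. The submitters' processing notes name FastQC, STAR 2.7.2b, RSEM 1.3.0, DESeq2 and the build mm10, without the role of each tool or any strand setting. Each kidney has 1 deposited table, in which expected counts give the RSEM estimate of reads per gene before any normalisation. TPM in the same deposited table is scaled to effective gene length and library total, and the authors also left lengths, effective lengths and posterior SDs of the counts there. The SDs were 0 for all 9 members. Of 55401 gene IDs, 55141 matched GENCODE M21 without their version and 54349 with it.

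Expected counts were rounded and fitted in edgeR 4.0.16 with glmQLFit and glmQLFTest (R 4.3.3; TMM, filterByExpr, Benjamini-Hochberg over 14326 genes, no covariate). SE is the log2 fold change divided by the root of F, and 95% intervals use the t distribution with the degrees of freedom of the fit. Single genes were also tested on CPM with two-sided exact permutation tests. Alternatives used DESeq2 1.42.0 and limma 3.58.1. Count tests were tested on simulated data. Groups and replicate numbers come from the sample titles. The labels do not say how the mice were kept or which shared a litter, so p-values measure the spread between these kidneys. Counts carry no molecular identifiers, so counting errors cover counting alone. No pair of kidneys within a group agreed within sampling noise.

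The members, gene lists and tests were chosen with earlier results of these data known. Named genes are the 9 members, the 3 kinases, each list's genes at an unadjusted p under 0.05 or otherwise its highest and lowest, and the 5 most similar genes for 3 members. *Gc*, *S100g*, *Calb1*, *Trpv6*, *Slc8a1*, *Spp1*, *Pvalb*, *Aqp2*, *Gpx3* and *Slc34a1* were added after their values were seen. The same holds for *Slc22a6*, *Slc12a1*, *Nphs1*, *C1qa*, *C1qb*, *Rxrg*, *Cyp27a1*, *Fdx1*, *Lrpap1* and *Folr1*. *Adipoq*, *Plin1*, *Cidec*, *Cfd*, *Lep* and *Xist* also lie outside this rule and were named with their values known. Promoter sequences are from RefSeq (GRCm38.p6).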

Additional observations from a re-analysis of the deposited data

Results flagged for a closer look

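Each member's CPM, its annotated length and the *Cyp24a1* to *Cyp27b1* ratio were searched for a kidney far from the other 3 of its group by Dixon's test at the 95% level. Of 36 groups searched 4 had such a kidney, and chance gives about 1.8 where values follow a normal distribution. *Cyp27b1* in SIK mutant 2 was 16.9 CPM, against 31.3 to 34.3 CPM in the other 3 mutants, with a gap of 0.83 of the group's range. Without that kidney the *Cyp27b1* log2 fold change was 1.6 (edgeR FDR 0.540).

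The other 3 cases are annotated lengths. *Rxra* had a length of 4890 bases in control 1 and of 4834 bases in SIK mutant 4, against 4905 bases in each of the other 6 kidneys. With the other kidneys of a group tied at 1 value, any departure passes, so the number given for chance does not hold for *Rxra*. *Amn* had a length of 1640 bases in control 1, against 1609 to 1613 bases in the other 3 controls. The *Amn* lengths of the mutants, 1594 to 1649 bases, spanned these values.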

How the results depend on the processing

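Over 23 alternatives to the main edgeR fit *Cyp27b1* kept a positive log2 fold change of 1.19 to 1.66 (FDR 0.000301 to 0.879) and *Cyp24a1* one of 1.97 to 3.52 (FDR 0.116 to 0.996). *Cyp27b1* passed an FDR of 0.05 with DESeq2 (1.42, FDR 0.00717) and with DESeq2 on the 6 Y-positive kidneys, those that hold Y-linked reads (1.39, FDR 0.000301), the 2 settings in which 1 member passed. It did not pass in DESeq2 with a covariate for Y-linked expression (1.35, FDR 0.290). Leaving out each kidney in turn gave 1.19 to 1.66 for *Cyp27b1*, 2.29 to 3.52 for *Cyp24a1*, and 0 to 1 genes passing in all.

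Counts of all genes passing were 71 with DESeq2, 2 by voom in limma, 4 and 5 by limma-trend on log2(TPM + 1) and log2(TPM + 0.1), 9 without a filter, 17 with the Y-linked covariate, 21 on the 6 Y-positive kidneys, 197 with DESeq2 and that covariate, and 183 with DESeq2 on those 6 kidneys. The titles do not say that numbers pair mice, so numbers were not taken as pairs. Deviations from the group means had r of −0.137, 0.0573, 0.0241 and −0.253 between same-numbered control and mutant kidneys. Between differently numbered ones r ran from −0.107 to 0.253. Deviations of the controls include the split by Y-linked reads, which no mutant shared, so these values cannot decide whether numbers mark pairs. Numbers are those of the titles, and the study's own table appears to number its controls differently, so a shared number need not mean a shared litter. The fit with the replicate number as a block passed 0 genes (657 at an unadjusted p under 0.05, against 911 without it), with *Cyp27b1* at 1.46 (FDR 0.558) and *Cyp24a1* at 3.02 (FDR 0.996), and changed the sign of *Amn* to 0.0069. Within the block the *Cyp24a1* to *Cyp27b1* difference was 1.51 (exact permutation p = 0.250), and no call of a member changed. The 4 lists of related genes held 3 genes at an unadjusted p under 0.05 (6.52%, against 6.36% of all genes) and 0 with the block (all genes 4.59%). They held 5 in both limma-trend fits (10.9%, all genes 8.26% and 8.21%), 8 with the Y-linked covariate (17.4%, all genes 12.1%), 9 on the 6 kidneys (19.1%, all genes 11.1%), 10 with DESeq2 and the covariate (20.4%, all genes 5.74%), 8 with DESeq2 on the 6 kidneys (16.3%, all genes 5.47%) and 0 to 7 when leaving out kidneys. The lowest count followed the loss of SIK mutant 3 and the highest the loss of SIK mutant 1 or 4. All-gene shares of DESeq2 with the covariate and on the 6 kidneys cover 25241 and 24382 genes, without the filter on low counts. Those of edgeR in the same settings cover 14326 and 14719 filtered genes. The lists hold mostly genes that pass the filter, so the gap in the DESeq2 fits cannot be read as an excess of the lists.

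Signs of the small differences of receptors and uptake genes were not stable. With the Y-linked covariate, the 6 kidneys, DESeq2 with the covariate and DESeq2 on the 6 kidneys, in this order, *Vdr* was −0.14, −0.13, −0.13 and −0.13, *Rxra* −0.0662, −0.0486, −0.0642 and −0.0536, *Lrp2* 0.0667, 0.0774, 0.069 and 0.0726, and *Cubn* 0.0102, 0.0227, 0.0127 and 0.018. In the limma-trend fits with pseudocounts 1 and 0.1 *Lrp2* was 0.0587 and 0.0592, *Cubn* 0.0109 and 0.0113, *Amn* 0.10 and 0.11, and *Dab2* 0.0439 and 0.0441. The median of all genes there was 0.09 and 0.11. *Amn* was 0.0035 with limma-voom, and with the mean fragment length of a library as a covariate, chosen after seeing the data, *Amn* was 0.17 and *Dab2* 0.0153, and *Vdr* was 0.32 (edgeR unadjusted p = 0.0361, FDR 0.692). *Rxra* was 0.23 and 0.24 in the limma-trend fits (limma unadjusted p = 0.0488 and 0.0484, FDR 0.602 and 0.605). Leaving out kidneys gave −0.14 to 0.0093 for *Lrp2* and −0.14 to 0.10 for *Amn*. The causes were not tested.

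A member with non-overlapping annotated lengths was found in 3 of 10 alternatives (1 each, and 0 to 1 when leaving out kidneys), namely *Lrp2* on the 6 kidneys, *Vdr* without control 1 and *Cyp27b1* without SIK mutant 2. Of the 21 pairs 1 passed on log2(TPM + 0.1). The *Cyp24a1* to *Cyp27b1* difference stayed positive, at 0.55 to 1.93, and passed in none of 11 alternatives. *Cyp2r1*, at 6 to 14 reads, is limited by depth, and the other members by the spread between 4 kidneys.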
